A study of Mus musculus with 16 samples.

Results

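The 10 genes described here encode transcription factors of the sclerotome, of early cartilage and of the neighbouring somite compartments: Pax1, Pax9, Nkx3-2, Uncx, Sox9, Sox5, Sox6, Meox1, Meox2 and Scx. They were taken by name from a table of 56748 genes, in which all 10 had a row. RNA came from mouse embryos at E11.5, dissected into a trunk region and a caudal region and sequenced in bulk. Embryos were either WT (Ednrb+/+) or Ednrb-/-, with a targeted mutation on both copies of the gene for the endothelin receptor type B. Each of the 4 groups of genotype and region had 4 libraries described as biological replicates. The series asks how the surroundings of pigment cells bear on the position of pigmented spots in mice without this receptor. The sources used here give no strain, allele design or somite counts, and do not say whether a library holds 1 embryo or several.

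As background, somites are blocks of paraxial mesoderm that bud off the presomitic mesoderm in the tail end of the embryo. Their ventral part, the sclerotome, loses its epithelial form under Hedgehog signals from the notochord and floor plate, switches on Pax1, Pax9 and Nkx3-2, and gives rise to vertebrae and ribs. Sox9, together with Sox5 and Sox6, then directs the formation of cartilage, while Scx marks the tendon progenitors that arise at the border of sclerotome and myotome.

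Levels are given as FPKM, in which fragments are counted per kilobase of gene and scaled to a total for each library. They can thus be set side by side between genes. All 10 genes passed the filter for testing, which asked for at least 0.5 FPKM in at least 4 libraries and left 17205 genes. The recovered read counts behind a single library's value ran from 74 for Scx to 6336 for Meox1. Differences are on the log2(FPKM + 0.5) scale with their standard error from limma, and a difference was called at a Benjamini-Hochberg adjusted p under 0.05 over all genes tested. In the bulk tissue sequenced here, fewer cells of a type and less RNA per cell cannot be told apart.

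Upstream sequences are shown for Pax1 and Pax9, close relatives that fell in the caudal region of Ednrb-/- embryos, and for Meox2, which rose there. In the other comparisons Meox2 did not oppose them clearly. Between genotypes in the trunk the differences were 0.18, 0.20 and 0.11 in turn, none called. Each was lower in the WT trunk than in the WT caudal region. A promoter window was matched for 7 of the 10 genes, from RefSeq on build GRCm38.p6. Each line gives the 250 bases before the start site, 5′ to 3′ on the plus strand. Capitals mark matches, on either strand, to the CCAAT box (spelled CCAAT), the TATA box (spelled TATAAA), the core bound by SOX factors (spelled AACAAT) or the homeodomain core (spelled TAATTA).
Pax1: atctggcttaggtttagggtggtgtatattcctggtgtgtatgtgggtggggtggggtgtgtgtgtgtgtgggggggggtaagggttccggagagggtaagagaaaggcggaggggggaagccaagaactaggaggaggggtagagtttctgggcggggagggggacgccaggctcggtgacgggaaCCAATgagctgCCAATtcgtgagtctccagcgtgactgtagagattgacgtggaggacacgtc
Pax9: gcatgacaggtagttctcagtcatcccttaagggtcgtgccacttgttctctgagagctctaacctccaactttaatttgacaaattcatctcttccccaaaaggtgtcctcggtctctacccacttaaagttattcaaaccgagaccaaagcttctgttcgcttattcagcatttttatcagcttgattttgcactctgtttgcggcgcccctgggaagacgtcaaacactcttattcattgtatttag
Meox2: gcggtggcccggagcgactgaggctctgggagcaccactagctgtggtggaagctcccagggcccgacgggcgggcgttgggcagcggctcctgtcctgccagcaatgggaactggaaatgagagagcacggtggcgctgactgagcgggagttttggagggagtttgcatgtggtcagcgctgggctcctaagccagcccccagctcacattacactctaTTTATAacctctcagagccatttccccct
The Pax1 window lay at chr2:147364744-147364993 and held CCAAT at 63 and at 52 bases before the start site. The Pax9 window, at chr12:56695221-56695470, held no match to the 4 motifs. The Meox2 window, at chr12:37108290-37108539, held TTTATA, the reverse strand of TATAAA, at 29 bases before the start site. Among 32851 such windows, CCAAT was found in 33.8%, TATAAA in 12.4%, AACAAT in 9.42% and TAATTA in 4.84%. In the annotation of the same build the windows lay within the span of an annotated transcript (of Pax1, Pax9 and the lncRNA Gm48617 in turn) and touched 0 annotated exons. A match of this kind is a description of letters and not a mapped site.

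Listed reads per library lay between 34883821 and 43444905. The total to which FPKM was scaled was not their plain sum. It lay above the listed reads in every WT library and below them in every Ednrb-/- caudal library. In Ednrb-/- caudal replicate 2 it was 35337800, against 37251226 listed reads. Ednrb was at 26.2 to 41.8 FPKM in the 8 WT libraries and at 1.59 to 4.80 FPKM in the 8 Ednrb-/- libraries. Markers of presomitic mesoderm and tailbud differed between the regions in WT, with 7 of 11 lower in the trunk, 0 higher and 4 not called. Of all genes tested, 8.35% were called lower and 9.69% higher in that comparison. Among them T stood at 7.22 ± 3.34 FPKM (SD, n = 4) in WT caudal tissue and 1.33 ± 0.166 FPKM in WT trunk tissue. Some libraries stood apart. In 3 libraries (WT caudal replicate 2, Ednrb-/- trunk replicate 3 and Ednrb-/- caudal replicate 3), Xist and the Y-linked Ddx3y were both at 5 FPKM or more. Xist was at 145 and 148 FPKM in WT trunk replicates 1 and 4. It was at 156 FPKM in WT caudal replicate 1 and 135 FPKM in Ednrb-/- trunk replicate 2. No Ednrb-/- caudal library was that high, so sex was not balanced between the groups. WT caudal replicate 4 had the lowest presomitic marker sum of its group, 29.0 FPKM against 41.7 to 59.7 FPKM in the other WT caudal libraries. That sum lay within the WT trunk range of 22.8 to 29.4 FPKM. WT trunk replicate 1 was the lowest library of its group for 7 of the 10 factors, below the group mean on the log2 scale by 0.35 for Uncx, 0.30 for Sox9, 0.24 for Pax9, 0.22 for Nkx3-2, 0.16 for Sox6, 0.10 for Pax1 and 0.065 for Sox5. The genotypes differed in stage genes, with Lin28a, high in young embryos, at 20.2 ± 8.96 FPKM in Ednrb-/- caudal tissue against 3.60 ± 0.718 FPKM in WT caudal tissue. Lin28a was one of 5 genes chosen because earlier results of these same data showed them moving with genotype. Of these 5, 4 rose and 1 fell in each region, a count that their choice had largely fixed. The part of embryo stage in the differences below was not tested.

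In the caudal region, loss of Ednrb went with a fall of 8 of the 10 factors: Pax1, Pax9, Nkx3-2, Uncx, Sox9, Sox5, Sox6 and Scx. The 2 Meox genes rose. By limma 41.6% of all genes tested were called in this comparison, 19.9% as lower and 21.7% as higher, so a call by itself was common. The median of the 10 differences was -0.47, against 0.0068 for all genes tested. With values rescaled to TPM, 30.6% of all calls in this comparison were higher, against 52.1% with FPKM.

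In the trunk, 3 of the 10 factors were called: Sox6 and Scx fell and Meox1 rose. There 25.1% of all genes tested were called, 13.0% as lower and 12.2% as higher, and the median of the 10 was -0.04 against 0.0040 for all genes. Between the regions of WT embryos, Scx was higher in the trunk and Pax1, Pax9, Nkx3-2, Sox9, Meox1 and Meox2 were lower there. Of all genes 18.0% were called in that comparison, 9.69% as higher in the trunk and 8.35% as lower. In Ednrb-/- embryos, Sox5, Sox6 and Scx were higher in the trunk and Meox1 and Meox2 were lower. There 36.2% of all genes were called, 17.3% as higher in the trunk and 18.9% as lower. With TPM, 67% of calls between the Ednrb-/- regions were higher in the trunk, against 47.8% with FPKM. These comparisons share groups: WT caudal tissue, for example, enters both the caudal genotype comparison and the WT region comparison.

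**Figure D1:**
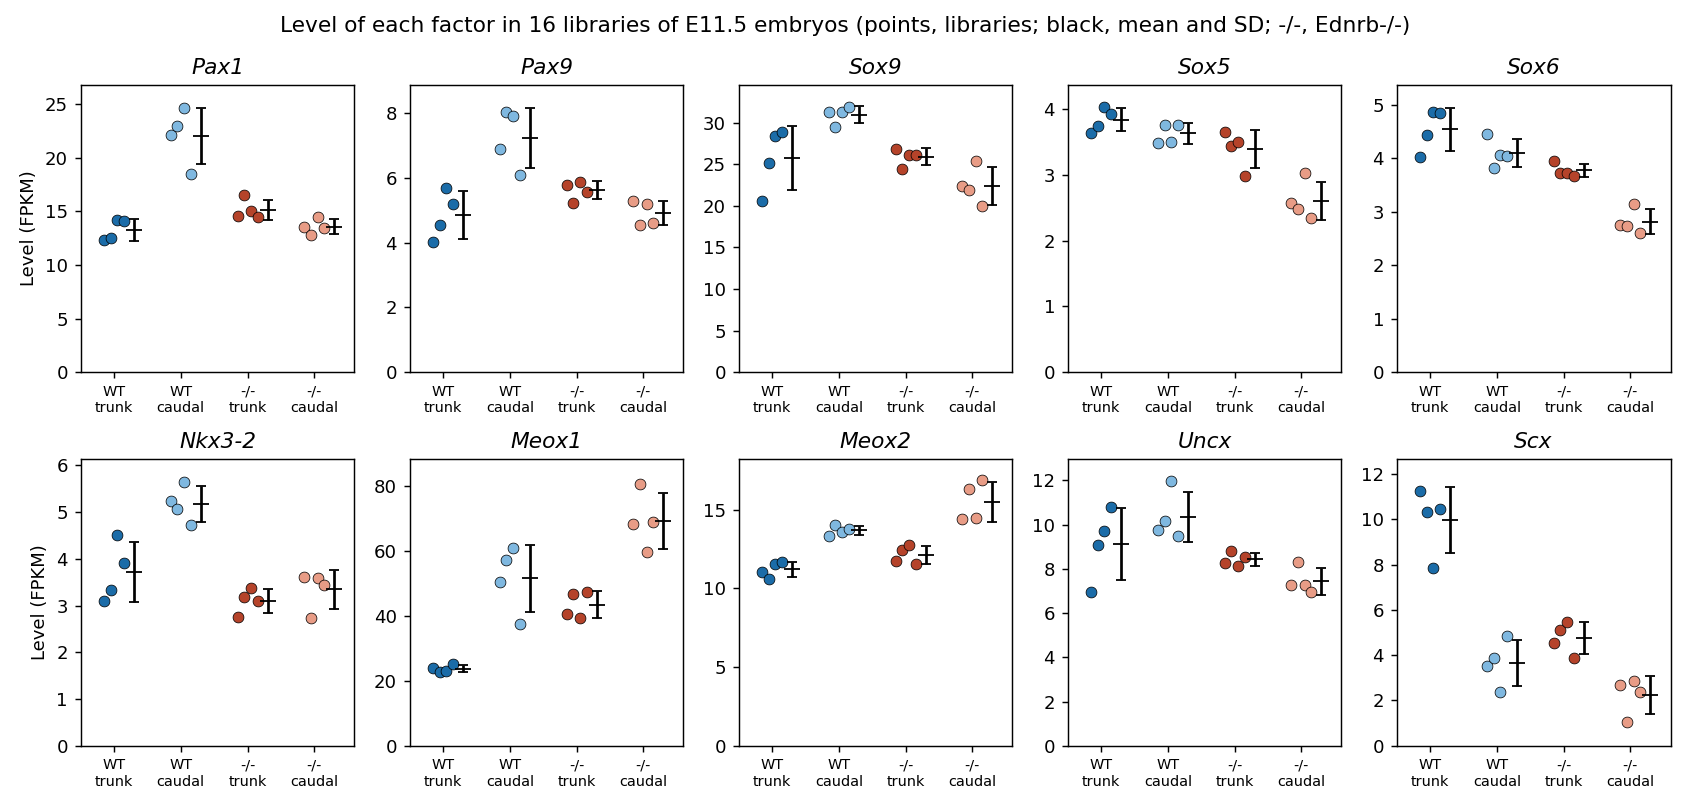
Level of each of the 10 factors in FPKM (vertical axis, linear from 0, with its own scale in each panel) in the 4 groups, with 1 point for each library and the group mean and SD in black. Pax1, Pax9, Nkx3-2 and Sox9 have their highest libraries in WT caudal tissue, Meox1 and Meox2 in Ednrb-/- caudal tissue, and Scx in WT trunk tissue.

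Pax1 and Pax9 encode paired-box factors that act together in the ventral sclerotome and are needed for vertebral bodies and intervertebral discs. Pax1 (ENSMUSG00000037034) lies on chromosome 2 from 147203845 to 147235215 on the plus strand of mm39. The WT caudal libraries, replicates 1 to 4, held 22.1, 23.0, 24.7 and 18.5 FPKM of Pax1. The Ednrb-/- caudal libraries held 13.6, 12.8, 14.5 and 13.5 FPKM. Every mutant library therefore lay below every WT library of the caudal region. The mean went from 22.1 ± 2.61 to 13.6 ± 0.692 FPKM (SD, n = 4), 0.615 times the WT mean. On the log2 scale the fall of Pax1 was 0.67 ± 0.08 (limma adjusted p = 1.3e-05).

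In the trunk, Pax1 was at 12.3, 12.5, 14.2 and 14.1 FPKM in WT and at 14.6, 16.5, 15.1 and 14.5 FPKM in Ednrb-/- libraries. The mutant libraries lay above the WT libraries without overlap, yet the difference of 0.18 ± 0.08 was not called (limma adjusted p = 0.091). It was called when WT caudal replicate 4, which is not in this contrast but adds to the shared spread, was left out (limma adjusted p = 0.035). In WT, Pax1 was lower in the trunk by 0.71 ± 0.08 (limma adjusted p = 1.9e-05), without overlap of libraries. In Ednrb-/- embryos the order was turned, with a trunk mean of 15.2 ± 0.940 FPKM above the caudal mean of 13.6 FPKM. That difference of 0.15 ± 0.08 was not called (limma adjusted p = 0.13), but it was with TPM (0.22, adjusted p = 0.030). WT caudal tissue stood apart as the highest group, Ednrb-/- trunk came next without overlap, and Ednrb-/- caudal and WT trunk overlapped at the bottom.

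Pax9 (ENSMUSG00000001497; chromosome 12, 56738552 to 56759607, plus strand) was lower than Pax1 in every library. Its WT caudal libraries held 6.90, 8.04, 7.92 and 6.08 FPKM, and its Ednrb-/- caudal libraries 5.30, 4.56, 5.19 and 4.62 FPKM. Again the caudal groups did not overlap. The means were 7.24 ± 0.926 and 4.92 ± 0.383 FPKM (SD, n = 4), and Pax9 fell by 0.51 ± 0.10 (limma adjusted p = 0.00070). In the trunk the WT libraries held 4.01, 4.54, 5.69 and 5.20 FPKM and the mutant libraries 5.77, 5.24, 5.87 and 5.58 FPKM. These ranges overlapped and the difference of 0.20 ± 0.10 was not called (limma adjusted p = 0.15). In WT, Pax9 was lower in the trunk than in the caudal region by 0.53 ± 0.10 (limma adjusted p = 0.0016). Between the Ednrb-/- regions the difference was 0.18 ± 0.10 (limma adjusted p = 0.18). Only WT caudal tissue was separated from its neighbour in the order of groups. Pax9 overlaps the antisense lncRNA Gm15524, with group means from 1.39 to 3.56 FPKM, and Slc25a21 on the minus strand. Whether the counting used strand is not stated in these sources, so reads of these genes cannot be told apart from those of Pax9.

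For Pax1, Pax9 and Sox9 the genotype difference itself differed between the regions. The caudal difference minus the trunk difference was -0.86 ± 0.11 for Pax1 (limma adjusted p = 0.00098) and -0.71 ± 0.14 for Pax9 (limma adjusted p = 0.0097). For Sox9 it was -0.48 ± 0.12 (limma adjusted p = 0.033). Of all genes tested 6.76% were called in this test of the interaction, 3.78% as lower and 2.98% as higher. With TPM, 20.9% of its calls were higher, against 44.1% with FPKM, and the same 3 factors were called. The other 7 factors were not called, with interactions from -0.42 for Meox1 to 0.37 for Scx. The Sox9 call was lost with no filter on low genes (adjusted p = 0.075) and when WT trunk replicate 2, WT caudal replicate 1 or 4, Ednrb-/- trunk replicate 1 or 3, or Ednrb-/- caudal replicate 2 or 4 was left out (adjusted p from 0.056 to 0.071).

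Pax1 and Pax9 are also known from the endoderm of the pharyngeal pouches. Of the 8 pharyngeal and foregut endoderm genes listed, 3 that mark the pouch organs or the thyroid were near 0: the highest group means of Gcm2, Nkx2-1 and Foxn1 were 0.0043, 0.0044 and 0.0438 FPKM. The other 5 (Epcam, Foxa1, Foxa2, Sox2 and Cldn6), which mark other tissues as well, were tested. Of these, 4 rose and 0 fell in the caudal region, and 2 rose and 1 fell in the trunk. Among all genes tested, 21.7% rose and 19.9% fell in the caudal region, and 12.2% rose and 13.0% fell in the trunk. The summed level of all 8 was 47.6 to 62.1 FPKM in WT caudal and 61.7 to 77.7 FPKM in Ednrb-/- caudal libraries, and 38.1 to 50.8 FPKM in WT trunk and 45.7 to 53.1 FPKM in Ednrb-/- trunk libraries. The part of endoderm in the Pax1 and Pax9 levels was not tested.

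Nkx3-2, also called Bapx1, is a homeobox repressor induced in the sclerotome, where it favours cartilage formation. The gene is ENSMUSG00000049691 (chromosome 5, 41918826 to 41921844, minus strand). WT caudal libraries held 5.24, 5.06, 5.65 and 4.73 FPKM and Ednrb-/- caudal libraries 3.62, 2.73, 3.59 and 3.44 FPKM, with no overlap. Nkx3-2 fell in the caudal region by 0.56 ± 0.10 (limma adjusted p = 0.000485), from a mean of 5.17 ± 0.384 to 3.35 ± 0.415 FPKM (SD, n = 4). In the trunk the WT libraries spread from 3.09 to 4.52 FPKM and the mutant libraries from 2.74 to 3.37 FPKM, and the difference of -0.22 ± 0.10 was not called (limma adjusted p = 0.14). WT caudal tissue was again the highest group. Nkx3-2 was lower in the WT trunk than in the WT caudal region by 0.44 ± 0.10 (limma adjusted p = 0.0083). Between the Ednrb-/- regions the difference was -0.09 ± 0.10 (limma adjusted p = 0.52), and the 3 groups below WT caudal each overlapped their neighbour.

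Uncx encodes a homeobox factor of the posterior part of each somite, needed for the pedicles of the vertebrae and the proximal ribs. It is on chromosome 5 (ENSMUSG00000029546; 139529249 to 139533934, plus strand). Its caudal libraries held 9.75, 10.2, 12.0 and 9.48 FPKM in WT and 7.26, 8.33, 7.27 and 6.94 FPKM in Ednrb-/- embryos. The mutant libraries were all below the WT libraries, and Uncx fell by 0.45 ± 0.10 (limma adjusted p = 0.0027). In the trunk the WT libraries held 6.96, 9.06, 9.70 and 10.8 FPKM around the mutant libraries at 8.28, 8.81, 8.13 and 8.52 FPKM. The trunk difference was -0.09 ± 0.10 (limma adjusted p = 0.55). Neither region difference was called, at -0.18 in WT and 0.17 in Ednrb-/- embryos, and every neighbouring pair in the order of groups overlapped.

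Sox9 is the factor without which cartilage does not form, and it acts directly on collagen genes such as Col2a1. It lies on chromosome 11 from 112673050 to 112678586 on the plus strand (ENSMUSG00000000567). WT caudal libraries were tightly placed at 31.3, 29.5, 31.3 and 31.9 FPKM. Ednrb-/- caudal libraries were all lower, at 22.4, 21.9, 25.4 and 19.9 FPKM. Sox9 fell in the caudal region by 0.46 ± 0.09 (limma adjusted p = 0.00067), from 31.0 ± 1.02 to 22.4 ± 2.24 FPKM (SD, n = 4). In the trunk the WT libraries ranged from 20.6 FPKM in replicate 1 to 28.9 FPKM in replicate 4. Their mean of 25.8 ± 3.85 FPKM and the mutant mean of 25.9 ± 1.01 FPKM were close, and the mutant libraries, from 24.5 to 26.9 FPKM, lay inside the WT range. The difference was 0.02 ± 0.09 (limma adjusted p = 0.90), and its sign turned to -0.08 without WT trunk replicate 1.

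Sox9 was lower in the WT trunk than in the WT caudal region by 0.27 ± 0.09 (limma adjusted p = 0.043). That call was lost in 18 of 29 other settings, with adjusted p up to 0.11 and a difference of -0.17 when WT trunk replicate 1 was left out. Leaving out WT trunk replicate 2, any WT caudal library, any Ednrb-/- trunk library or Ednrb-/- caudal replicate 1 also ended it, with adjusted p between 0.051 and 0.088. In Ednrb-/- embryos the trunk exceeded the caudal region by 0.21 ± 0.09 (limma adjusted p = 0.074), which became a call in 6 of 29 settings. Among these were TPM (adjusted p = 0.029) and the fits without WT trunk replicate 1 (adjusted p = 0.017) or Ednrb-/- caudal replicate 3 (adjusted p = 0.027).

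Sox5 and Sox6 encode closely related SOX factors that lack an activation domain of their own and strengthen the binding of SOX9 in chondrocytes; both are also used in neurons and glia. Sox5 (ENSMUSG00000041540; chromosome 6, 143774151 to 144727703, minus strand) was at 3.49, 3.77, 3.50 and 3.77 FPKM in WT caudal libraries and at 2.57, 2.48, 3.02 and 2.35 FPKM in Ednrb-/- caudal libraries. The groups did not overlap and Sox5 fell by 0.42 ± 0.07 (limma adjusted p = 0.00026). Trunk means were 3.84 ± 0.175 FPKM in WT and 3.40 ± 0.286 FPKM in Ednrb-/- embryos (SD, n = 4), with libraries that overlapped. That difference of -0.16 ± 0.07 was not called (limma adjusted p = 0.11).

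Sox6 (ENSMUSG00000051910; chromosome 7, 115070107 to 115638031, minus strand) fell in both regions. Its caudal libraries held 4.45, 3.83, 4.07 and 4.04 FPKM in WT and 2.76, 2.73, 3.15 and 2.61 FPKM in Ednrb-/- embryos. Its trunk libraries held 4.02, 4.45, 4.87 and 4.86 FPKM in WT and 3.96, 3.74, 3.73 and 3.68 FPKM in Ednrb-/- embryos. Mutant libraries lay below WT libraries in each region without overlap. The fall was 0.47 ± 0.07 in the caudal region (limma adjusted p = 6.1e-05) and 0.24 ± 0.07 in the trunk (limma adjusted p = 0.017). The trunk call was lost without WT trunk replicate 3 (adjusted p = 0.053) or replicate 4 (adjusted p = 0.055). The interaction was not called for Sox6 (-0.24 ± 0.09, adjusted p = 0.14) or for Sox5 (-0.26 ± 0.10, adjusted p = 0.13), although Sox5 was called without Ednrb-/- caudal replicate 3 (adjusted p = 0.037).

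Between the WT regions neither Sox5 (0.07 ± 0.07, limma adjusted p = 0.54) nor Sox6 (0.13 ± 0.07, adjusted p = 0.18) was called. In Ednrb-/- embryos both were higher in the trunk, by 0.33 ± 0.07 for Sox5 (limma adjusted p = 0.0021) and 0.37 ± 0.07 for Sox6 (adjusted p = 0.00057). Ednrb-/- caudal tissue was the lowest group for both genes. Glia use these SOX genes too, and markers of neural crest and glia moved the same way: 5 of 6 fell in each region and 0 rose. Their summed level was 40.6 to 47.5 FPKM in WT caudal and 27.2 to 31.6 FPKM in Ednrb-/- caudal libraries, with none of the 6 at 0. Trunk sums were 41.2 to 47.1 FPKM in WT and 32.9 to 35.6 FPKM in Ednrb-/- libraries. Of all genes tested, 19.9% fell and 21.7% rose in the caudal region, and 13.0% fell and 12.2% rose in the trunk. Of 8 neural progenitor markers, 3 rose and 1 fell in the caudal region, and 2 rose and 1 fell in the trunk. Their summed level was nonetheless lower in mutants, at 220 to 276 FPKM in WT caudal and 158 to 181 FPKM in Ednrb-/- caudal libraries, and at 259 to 347 FPKM in WT trunk and 225 to 238 FPKM in Ednrb-/- trunk libraries. The part of glia and neural cells in the fall of Sox5 and Sox6 was not tested.

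**Figure D2:**
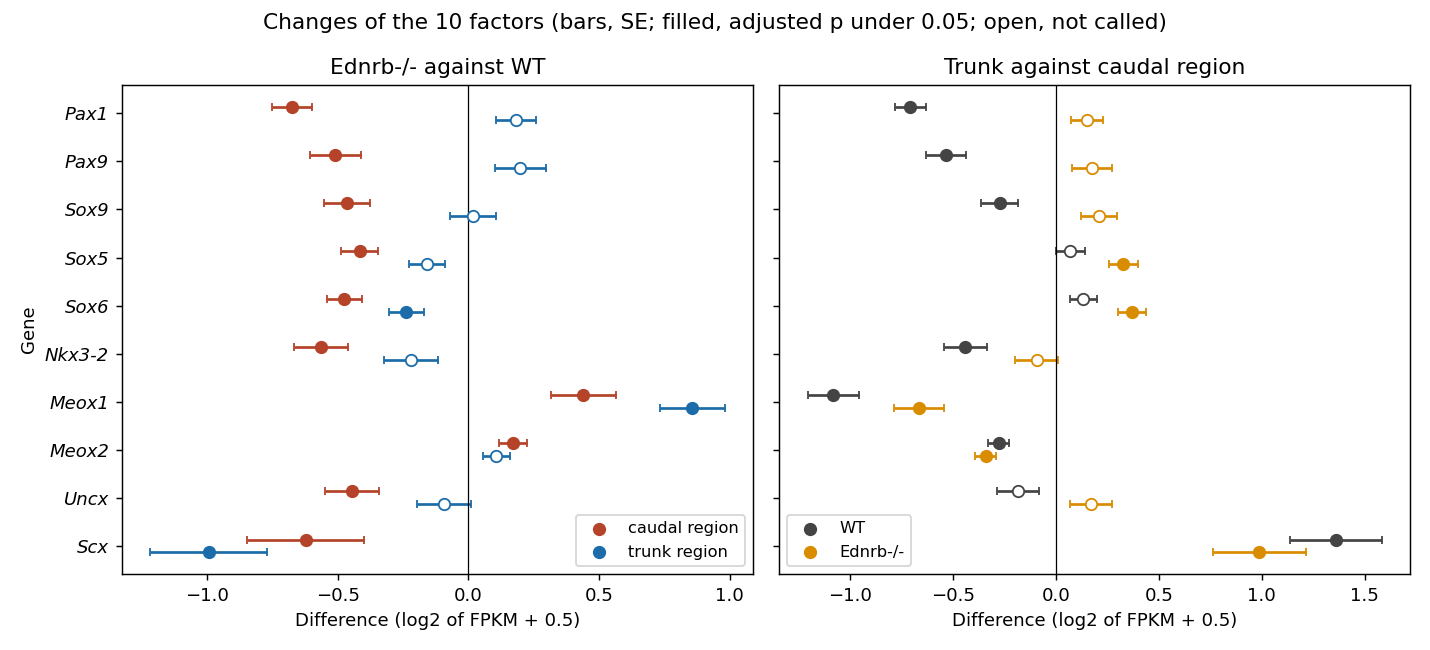
Differences of the 10 factors in log2(FPKM + 0.5) with bars of 1 SE (horizontal axis), Ednrb-/- against WT in each region on the left and trunk against caudal region in each genotype on the right, with filled points for calls by limma. Pax1 and Pax9 sit at -0.67 and -0.51 in the caudal region and to the right of 0, uncalled, in the trunk.

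Meox1 and Meox2 encode homeobox factors of the somite that act upstream of Pax1, Pax9, Nkx3-2 and Uncx, and embryos lacking both have severe defects of the axial skeleton. Meox1 (ENSMUSG00000001493; chromosome 11, 101768336 to 101785200, minus strand) was the most abundant of the 10 in both caudal groups and in the Ednrb-/- trunk, by mean FPKM. Its trunk libraries held 23.9, 22.6, 23.1 and 25.1 FPKM in WT and 40.5, 46.6, 39.3 and 47.3 FPKM in Ednrb-/- embryos. These groups lay far apart, and Meox1 rose by 0.86 ± 0.12 (limma adjusted p = 0.00020), to 1.83 times the WT mean. In the caudal region the WT libraries held 50.5, 57.3, 60.8 and 37.4 FPKM and the mutant libraries 68.1, 80.5, 59.6 and 69.0 FPKM. The mutant library at 59.6 FPKM fell below the highest WT library. Meox1 rose there by 0.44 ± 0.12 (limma adjusted p = 0.0095).

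WT caudal replicate 4, at 37.4 FPKM, lowered the WT caudal mean of Meox1, and without it the caudal rise was 0.30 (limma adjusted p = 0.023). In that library Meox1, Pax1 and Pax9 were 0.43, 0.24 and 0.23 below their group on the log2 scale, and Scx was 0.40 above it. The interaction for Meox1 was not called (-0.42 ± 0.17, limma adjusted p = 0.16), but it was called when that library was left out (-0.56, adjusted p = 0.025) and after quantile normalization (-0.54, adjusted p = 0.048). In both genotypes Meox1 was lower in the trunk, by 1.08 ± 0.12 in WT (limma adjusted p = 2.9e-05) and 0.66 ± 0.12 in Ednrb-/- embryos (adjusted p = 0.00075). The antisense lncRNA Gm11551 overlaps Meox1, with group means from 1.29 to 2.93 FPKM.

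Meox2 (ENSMUSG00000036144; chromosome 12, 37158539 to 37229533, plus strand) changed less. Its caudal libraries held 13.3, 14.0, 13.6 and 13.8 FPKM in WT and 14.4, 16.3, 14.4 and 16.9 FPKM in Ednrb-/- embryos, without overlap. It rose in the caudal region by 0.17 ± 0.05 (limma adjusted p = 0.016). The call was lost when Ednrb-/- caudal replicate 2 (0.15, adjusted p = 0.055) or replicate 4 (0.13, adjusted p = 0.062) was left out, with TPM (0.07, adjusted p = 0.26) and after quantile normalization (0.11, adjusted p = 0.072). Trunk means of Meox2 were 11.2 ± 0.492 FPKM in WT and 12.1 ± 0.575 FPKM in Ednrb-/- embryos (SD, n = 4), and the difference of 0.11 ± 0.05 was not called (limma adjusted p = 0.15). Like Meox1, Meox2 was lower in the trunk in both genotypes, by 0.28 ± 0.05 in WT (limma adjusted p = 0.0021) and 0.34 ± 0.05 in Ednrb-/- embryos (adjusted p = 0.00017).

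Both Meox genes are active from the youngest somites, which sit next to the presomitic mesoderm. Of the 11 markers of presomitic mesoderm and tailbud, 4 rose and 0 fell in the caudal region, and 1 rose in the trunk. Among all genes tested, 21.7% rose and 19.9% fell in the caudal region, and 12.2% rose in the trunk. The summed level of the 11 markers was 29.0 to 59.7 FPKM in WT caudal and 51.1 to 74.7 FPKM in Ednrb-/- caudal libraries. In the trunk, where Meox1 rose by 0.86, the sums overlapped, at 22.8 to 29.4 FPKM in WT and 25.6 to 29.4 FPKM in Ednrb-/- libraries. The part of younger somites in the Meox1 levels was not tested.

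Scx encodes scleraxis, a helix-loop-helix factor of tendon progenitors. It lies on chromosome 15 from 76341652 to 76343658 on the plus strand (ENSMUSG00000034161). Scx was the one factor whose highest group was WT trunk without overlap, at 11.2, 10.3, 7.84 and 10.5 FPKM. Ednrb-/- trunk libraries held 4.55, 5.13, 5.45 and 3.88 FPKM, all below. Scx fell in the trunk by 0.99 ± 0.22 (limma adjusted p = 0.0048), from 9.96 ± 1.47 to 4.75 ± 0.693 FPKM (SD, n = 4). In the caudal region WT libraries held 3.50, 3.86, 2.37 and 4.84 FPKM and Ednrb-/- libraries 2.69, 1.04, 2.85 and 2.39 FPKM. These ranges overlapped, though the difference was called (-0.62 ± 0.22, limma adjusted p = 0.036).

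The caudal call for Scx was lost in 10 of 29 settings, among them the replicate block (adjusted p = 0.052) and the fit without the 3 libraries holding Xist and Ddx3y (adjusted p = 0.053). It was also lost with the Xist covariate (-0.54), after quantile normalization (-0.52), with no filter and with only the groups compared. Without Ednrb-/- caudal replicate 2, at 1.04 FPKM, the difference was -0.37 (adjusted p = 0.12). Without WT caudal replicate 1, 2 or 4 the adjusted p was 0.063, 0.075 and 0.12. Scx was higher in the trunk than in the caudal region by 1.36 ± 0.22 in WT (limma adjusted p = 0.00070) and by 0.99 ± 0.22 in Ednrb-/- embryos (adjusted p = 0.0031). Scx lies inside Bop1, a ribosome assembly gene on the minus strand with group means from 18.7 to 24.0 FPKM, so some counted reads may belong to Bop1. Bop1 rose in the caudal region by 0.27 (limma adjusted p = 0.0038), and its trunk difference was 0.12 (adjusted p = 0.20). The part of Bop1 reads in the Scx levels was not tested.

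Related factors were also compared by their ratio within each library. Pax1 stood at 3.06 ± 0.146 times Pax9 in WT caudal tissue (SD, n = 4) and at 2.77 ± 0.148 in Ednrb-/- caudal, 2.76 ± 0.237 in WT trunk and 2.71 ± 0.296 in Ednrb-/- trunk tissue. Meox1 stood at 2.11 ± 0.0736 times Meox2 in WT trunk, 3.60 ± 0.428 in Ednrb-/- trunk, 3.77 ± 0.753 in WT caudal and 4.47 ± 0.432 in Ednrb-/- caudal tissue. WT trunk libraries thus had the lowest Meox1 to Meox2 ratios, and Ednrb-/- caudal tissue had the highest mean. Sox5 was at 0.846 to 0.925 times Sox6 in all 4 group means. The ratio tested was the log2 ratio with 0.5 added to each FPKM, which differs slightly from the FPKM ratios above. Each was compared 4 ways by exact permutation of the 8 libraries concerned (two-sided, 70 assignments). The smallest p this test can give is 0.0286, and p-values were adjusted over 12 tests.

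That smallest p was reached by 4 comparisons, each with an adjusted p of 0.086, and none of the 12 passed. The Meox1 to Meox2 ratio was higher in Ednrb-/- than in WT trunk by 0.75 on the log2 scale, lower in the WT trunk than in the WT caudal region by 0.80, and lower in the Ednrb-/- trunk than in the Ednrb-/- caudal region by 0.32. Libraries did not overlap in the log2 ratios tested. Of the plain FPKM ratios, those between the Ednrb-/- regions did overlap, since Ednrb-/- trunk replicate 4 stood at 4.095 and Ednrb-/- caudal replicate 4 at 4.089. The Pax1 to Pax9 ratio was lower in Ednrb-/- than in WT caudal tissue by 0.17. Its log2 ratios did not overlap with 0.5 added, but the plain FPKM ratios did, with Ednrb-/- caudal libraries up to 2.92 and WT caudal libraries down to 2.86. With 0.1 added in place of 0.5 they overlapped too (-0.15, exact permutation p = 0.057, adjusted p = 0.17). For Sox5 to Sox6 the exact permutation p ran from 0.17 to 0.51 and libraries overlapped in every comparison.

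**Figure D3:**
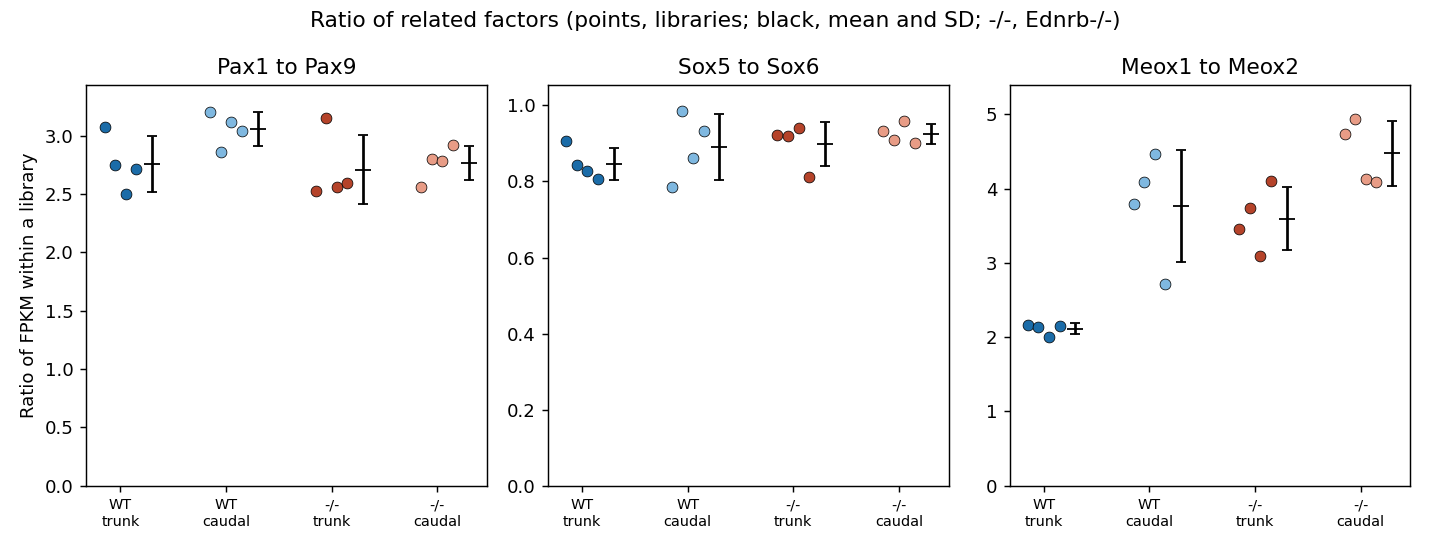
FPKM ratio of Pax1 to Pax9, Sox5 to Sox6 and Meox1 to Meox2 within each library (vertical axes from 0), by group, with group mean and SD in black. The WT trunk libraries have Meox1 to Meox2 ratios of 2.01 to 2.17, below all other libraries.

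Across the 16 libraries, which share groups and depth, Pax1 followed Pax9 with a Pearson r of 0.93 and Sox5 followed Sox6 with 0.94. Meox1 and Scx ran opposite, with r = -0.96. After the group means were taken out, r was 0.73 for Pax1 and Pax9, 0.74 for Pax9 and Nkx3-2, 0.58 for Sox5 and Sox6, 0.88 for Sox9 and Sox6 and -0.68 for Meox1 and Scx. These are descriptions over n = 16 libraries.

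The protein-coding genes with patterns most like each factor were sought among 13355 genes by Pearson r over the 16 libraries. Closest to Pax1 were Myo6 (0.90), an unconventional myosin, and Car3 (0.90), a carbonic anhydrase, and closest to Pax9 were Trim9 (0.92) and Ube2h (0.90). Nkx3-2 was nearest to Spock2 (0.92) and Thbd (0.91), and Uncx to Vangl2 (0.89), a planar cell polarity gene, and Rgma (0.89). Sox9 was nearest to Dst (0.93) and Setbp1 (0.92). Sox5 was nearest to Otp (0.97), a homeobox gene of neurons, and Sntb1 (0.96), and Sox6 to Rab9b and Rab6b (0.98 each). Otp went from 5.56 FPKM in WT caudal to 1.12 FPKM in Ednrb-/- caudal tissue. Meox1 was nearest to Wnt16 and Arid3b (0.98 each), and Meox2 to Fgfr2 (0.95) and Eya1 (0.94). Scx was nearest to Lgals1 (0.98) and Itm2a (0.97), the latter known from muscle and cartilage differentiation.

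Genes that act beside these factors were described from 4 lists, by counts and medians. For comparison, 19.9% of all genes tested fell and 21.7% rose in the caudal region, and 13.0% fell and 12.2% rose in the trunk. Of 24 genes listed as cartilage matrix genes, 19 were tested. Of these, 15 fell and 2 rose in the caudal region, with a median of -0.53. The list also holds genes that do not encode matrix proteins: Papss2, Chst11, Xylt1, Wwp2, Fgfr3 and Runx2. All of these but Xylt1 were among the caudal falls. In the trunk 11 fell and 2 rose, with a median of -0.41. Of the SOX factors, Sox6 was called lower there, and Sox9 and Sox5 were not called. The part of the SOX factors in these differences was not tested. Among the collagen IX genes, Col9a2 fell by 1.51 in the caudal region (limma adjusted p = 4.2e-06) and by 1.45 in the trunk (adjusted p = 1.7e-05), and Col9a3 by 1.59 and 1.78. Col11a1 fell by 0.59 in the caudal region and Matn4 by 1.81 in the trunk. Hapln1, which links aggrecan to hyaluronan, rose instead, by 0.66 in the caudal region (limma adjusted p = 0.00020) and 1.01 in the trunk (adjusted p = 2.6e-05). Col2a1, named here after its values were seen, fell in the caudal region from 54.5 ± 4.68 to 35.5 ± 2.24 FPKM (SD, n = 4; -0.61, limma adjusted p = 0.00026). Its trunk difference was -0.24 (adjusted p = 0.10). For Fgfr3, the only gene of this list called in the interaction, the caudal difference minus the trunk difference was -0.57 (limma adjusted p = 0.016).

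Other somite and sclerotome factors were mixed. Of 18 tested, 4 rose and 3 fell in the caudal region (median -0.04), and 6 rose and 0 fell in the trunk (median 0.15). In the caudal region Foxd1 fell by 0.44 (limma adjusted p = 3.8e-05) and Zic1, a sclerotome and neural tube factor, by 0.57 (adjusted p = 0.00055). Ripply1, a corepressor that shuts off segmentation genes as somites form, rose by 1.04 (adjusted p = 0.00031). In the trunk Tshz1 rose by 0.31 (limma adjusted p = 0.0015) and Foxc1 by 0.37 (adjusted p = 0.0035). In the interaction 4 of the 18 were called lower and 1 higher, beside 3.78% and 2.98% of all genes tested.

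The Hedgehog genes, whose signal induces Pax1 and Nkx3-2, were mixed too. Of 15 tested, 4 rose and 2 fell in each region, with medians of 0.05 in the caudal region and 0.17 in the trunk. With 21.7% of all genes higher and 19.9% lower in the caudal region, such calls were common there. Shh, the ligand, rose in the caudal region from 6.07 ± 0.360 to 11.2 ± 1.31 FPKM (SD, n = 4; 0.83, limma adjusted p = 4.2e-05). Smo rose there by 0.22 and Hhip, a target that binds the ligand, by 0.33, while the co-receptor Boc fell by 0.44 (adjusted p = 4.9e-05). In the trunk Hhip rose by 0.44 and Gli3 by 0.26, and Boc and Cdon fell by 0.22 and 0.19. The targets Ptch1 and Gli1, named after their values were seen, differed in the caudal region by 0.22 (limma adjusted p = 0.034) and 0.05 (adjusted p = 0.64). In WT, 11 of the 15 were lower in the trunk than in the caudal region and 1 was higher. Of all genes tested, 8.35% were lower there and 9.69% higher. Of 4 notochord markers tested, 3 rose and 1 fell in the caudal region, beside 21.7% and 19.9% of all genes. Their list includes Shh and also T, which is among the presomitic and tailbud markers as well. The sum of the whole list was at 11.0 to 19.9 FPKM in WT caudal and 23.8 to 34.5 FPKM in Ednrb-/- caudal libraries. The part of the notochord in these levels was not tested.

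Tendon and syndetome genes, all 16 tested, fell more often than they rose: 8 fell and 1 rose in the caudal region (median -0.39), and 8 fell and 4 rose in the trunk (median -0.44). In the caudal region Col14a1 fell by 1.08 (limma adjusted p = 8.0e-06), Fmod by 1.01, Col12a1 by 1.71, Tgfb2 by 0.85 and Mkx, a homeobox factor of tendon, by 0.64. In the trunk Fmod fell by 1.09 (limma adjusted p = 3.4e-05), Tnc by 1.34 and Col14a1 by 0.97, while Etv4, an FGF target, rose by 0.51. Tnmd, a late tendon gene named after its values were seen, was at 0.690 ± 0.0693 FPKM in WT trunk and 0.176 ± 0.110 FPKM in Ednrb-/- trunk tissue (SD, n = 4) and fell by 0.83 there (adjusted p = 0.00038).

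Markers of the myotome, the muscle layer beside the sclerotome, also differed. Among all genes tested, 19.9% fell and 21.7% rose in the caudal region, and 13.0% fell and 12.2% rose in the trunk. Of 11 dermomyotome and myotome genes, 5 fell and 2 rose in the caudal region, and 4 fell and 3 rose in the trunk. Their summed level was 82.1 to 93.5 FPKM in WT caudal and 62.7 to 68.4 FPKM in Ednrb-/- caudal libraries, and 111 to 132 FPKM in WT trunk and 94.4 to 99.4 FPKM in Ednrb-/- trunk libraries. Limb bud markers moved the other way in the caudal region, with 5 of 8 higher and 1 lower, and sums of 27.6 to 51.8 FPKM in WT and 52.5 to 61.0 FPKM in Ednrb-/- libraries. None of the genes of these lists was at 0 in all libraries. The part of tissue composition in the falls of the sclerotome factors was not tested.

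**Figure D4:**
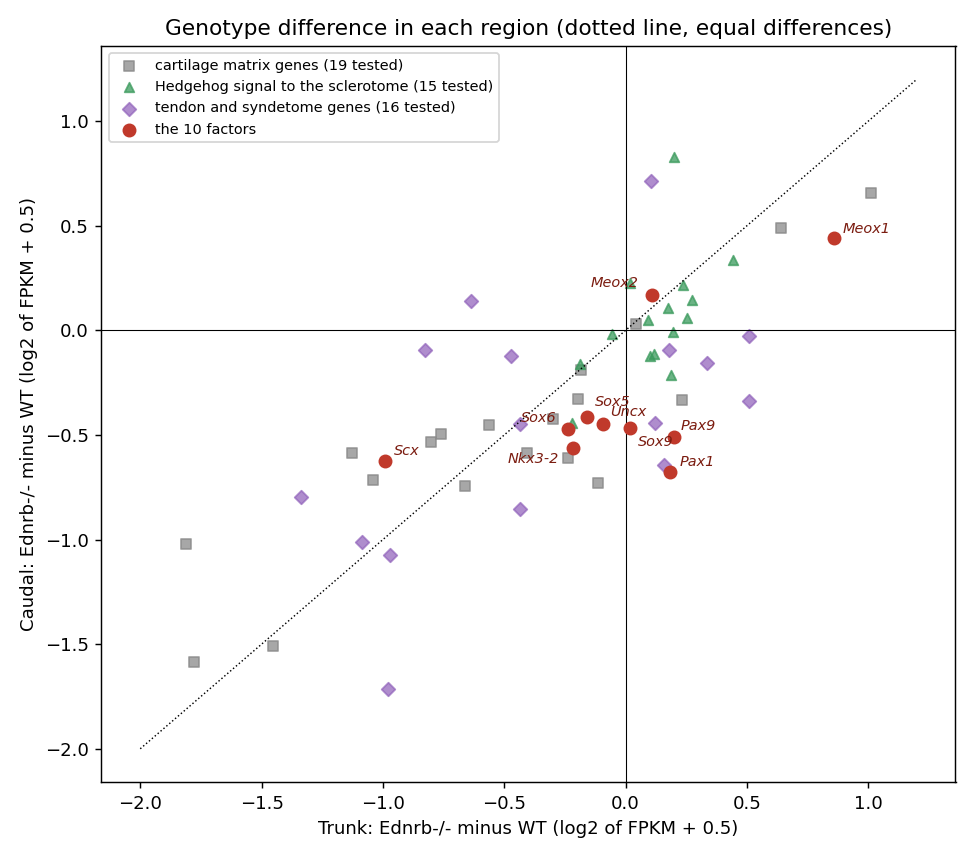
Genotype difference in the trunk (horizontal axis) against that in the caudal region (vertical axis), both in log2(FPKM + 0.5), for the 10 factors and 3 lists, with a dotted line where both are equal. Pax1, Pax9 and Sox9 lie below the dotted line with values of -0.67, -0.51 and -0.46 on the caudal axis.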

How the data were processed

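Total RNA of trunk or caudal tissue was extracted with TRIzol and made into Illumina libraries, per the labels' protocols. The tools were fastp, HISAT2 2.0.5 and featureCounts 1.5.0-p3 on mm39, per the submitters' processing notes. The sources used here give neither the annotation release nor the strand setting nor the treatment of multi-mapping reads. The authors deposited FPKM, 1 column per library, per the file headers. Multiplied by gene length and divided by 1 step per library, 100% of values were whole reads within 0.01, which gave the depth.

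Libraries were grouped by title. The fit was limma 3.58.1 (R 4.3.3) on log2(FPKM + 0.5) with 4 group means over 16 libraries, a trended prior variance and two-sided Benjamini-Hochberg adjustment over 17205 genes that reached 0.5 FPKM in 4 or more libraries. Such differences understate changes of low genes. The procedure was also run on simulated data with far fewer changed genes than were called here, so that run cannot vouch for these calls. Regions are not tied to embryos in the labels and were treated as separate samples. Standard errors came from the spread between libraries, which includes counting error, and the parts were not separated.

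The members, lists, tests and alternatives were chosen with earlier results of these data known. Named genes were the 10 members, Ednrb, up to 4 called genes per list and genotype comparison by adjusted p, and the 2 protein-coding genes nearest each member by r. Some genes this rule takes are not reported here. Alternatives were other pseudocounts and filters, TPM, median-of-ratios and quantile scaling, the groups compared alone, a replicate block, array weights, libraries left out, an Xist covariate and, added after the data were seen, voom on the whole reads. Genes are placed as in the deposited table (mm39); promoter windows are on GRCm38.p6. Figures were drawn with matplotlib 3.10.9 in Python 3.11.15.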

Additional observations from a re-analysis of the deposited data

Results flagged for a closer look

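The genotype difference of 3 factors depended on the region by a test of the interaction. For Pax1 the caudal difference minus the trunk difference was -0.86 on the log2 scale (limma adjusted p = 0.00098 over all genes), with mutant libraries below WT in 4 of 4 caudal libraries and above in 4 of 4 trunk libraries. For Pax9 it was -0.71 (limma adjusted p = 0.0097), where trunk libraries overlapped. For Sox9 it was -0.48 (limma adjusted p = 0.033), a call that 8 of 28 other settings lost. No library of any factor was flagged within its group of 4 by Dixon's test, which at that size finds only extreme gaps. Scx in Ednrb-/- caudal replicate 2, at 1.04 FPKM against 2.39 to 2.85 FPKM in the rest of its group, was not flagged.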

How the results depend on the processing

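Of 50 differences of the 10 factors, 28 were called, and 23 of these kept their call in all settings tried (29, or 28 for the interaction). The 5 that did not were the caudal differences of Meox2 and Scx, the trunk difference of Sox6, and the WT region difference and interaction of Sox9, given above. Differences that changed sign were all uncalled: Sox9 between genotypes in the trunk, at -0.0054 with TPM, -0.021 with quantile normalization, -0.040 with array weights and -0.082 without WT trunk replicate 1 (up to 0.078 without WT trunk replicate 4), and the Meox2 interaction, at -0.012 with TPM. The cause was not tested. The Pax1 to Pax9 log2 ratio ranged from -0.085 to 0.031 between genotypes in the trunk, and from -0.094 to 0.0065 between Ednrb-/- regions, when 1 library was left out. Over all genes, calls between WT regions went from 3103 to 1926 without the 3 libraries holding Xist and Ddx3y, which leaves fewer samples. Interaction calls went from 1163 to 571 with no filter, which tests more genes, and ranged from 583 to 1484 with 1 library left out. They were at 643 without WT trunk replicate 1, 672 without WT caudal replicate 1, 609 and 676 without Ednrb-/- trunk replicates 1 and 3, and 671 and 583 without Ednrb-/- caudal replicates 2 and 4. Same-numbered libraries of different groups did not deviate together over all genes tested (r from -0.084 to 0.11). That cannot show whether same-numbered libraries share an embryo or litter. The replicate block gave 9 members called in the caudal region, 3 in the trunk, 7 and 5 between WT and Ednrb-/- regions and 3 in the interaction. It lost the Scx call in the caudal region (adjusted p = 0.052) and changed no other. No scaling moved the median of all genes by over 0.1, with TPM at -0.08 in the caudal region. Depth limits Scx most, at 74 reads in its lowest library.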
